A study of Mus musculus with 42 samples.

Results

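Maternal mRNA storage and decay factors were followed through the 2- and 4-cell stages of mouse embryos. The group holds 9 genes, chosen by name but with earlier results of these data known: the deadenylation adaptor Btg4, the deadenylases Cnot7 and Cnot6l, the poly(A)-binding protein gene Pabpn1l, the storage factors Zar1 and Zar1l, the m6A reader Ythdf2, and the PAN2-PAN3 deadenylase pair Pan2 and Pan3. All 9 were among the 15737 genes analysed, and each had a value above 0 in at least 6 of the 9 columns of the deposited table.

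A fully grown oocyte stops transcribing and lives on stored mRNA until the embryo switches on its own genome. Many stored mRNAs are kept silent with a short poly(A) tail in ribonucleoprotein particles, where ZAR1 and ZAR1L bind, and are translated after their tail has been lengthened. Removal of the tail is the first step of their decay. BTG4 bridges the CCR4-NOT complex, whose catalytic subunits include CNOT7 and CNOT6L, to the translation machinery, PABPN1L brings BTG4 to the poly(A) tail, YTHDF2 recruits deadenylation to mRNAs that carry m6A, and PAN2 with its partner PAN3 trims long tails.

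The embryos came from ICR mice 6 to 8 weeks old, and 3 embryos were pooled for a library. Embryos without inhibitor were taken at 34 h after hCG (human chorionic gonadotropin, which times ovulation) as early 2-cell, at 48 h as late 2-cell and at 58 h as 4-cell embryos. Per the study's methods, 0.05% DMSO, the solvent of FK866 and TSA, served as the negative control for the inhibitors. FK866 (0.01 µM) blocks NAMPT, the enzyme that makes NMN for NAD+ synthesis, and was given alone or with 10 µM NMN to embryos taken at the late 2-cell and the 4-cell stage. The other late 2-cell groups were treated with TSA (10 nM), an inhibitor of histone deacetylases, or injected as zygotes with Sirt1 siRNA, Trim21 mRNA and an antibody to SIRT1, which removes the NAD+-dependent deacetylase. No column was headed as an injected control, so the late 2-cell control stands in for it. The questions behind these groups were how embryos use NAD+ during genome activation and whether NMN offsets FK866. The study used TSA to hinder the loss of H3K27ac, a histone acetylation set in the zygote. With the knockdown it asked whether SIRT1 removes that mark.

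Each group had 1 column of FPKM (fragments per kilobase of exon, scaled to the library's total reads) in the table. Multiplied by exon length, nearly all values fell on whole reads of 16 libraries, whose totals ran from 3169677 to 10003481 reads. Of the 9 columns, 7 were sums of 2 libraries and were divided by 2 to give FPKM per library, with A for the deeper and B for the shallower one. Only 1 library was found under each of the headers 4-cell FK866 and 4-cell FK866+NMN. For 5 columns, the header and the study's own tables name different groups. Every one of 84 control values listed for 4-cell embryos was equal to the value headed late 2-cell TSA. The same held for 84 of 84 values of FK866 under the header late 2-cell Sirt1, and for 84 of 84 values of FK866+NMN under the header 4-cell control. Listed TSA changes had the sign seen under the header 4-cell FK866 in 1203 of 1203 genes, and listed Sirt1 changes the sign seen under 4-cell FK866+NMN in 773 of 821. Signs were also shared with other columns, such as late 2-cell FK866 (986 of 1203 for TSA and 703 of 821 for Sirt1). A match of signs is thus weaker evidence of a name than equal values. For the late 2-cell control, FK866 and FK866+NMN columns, 117 or 118 of 118 values were those of the header, and the early 2-cell column has its header alone. Results are given by header first and by table second. All late 2-cell comparisons with control share the same control libraries.

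Sirt1 itself, the target of the knockdown, was measured at 86.6 and 66.2 FPKM in the late 2-cell control libraries. In the column headed late 2-cell Sirt1 it was at 32.4 and 73.1 FPKM, so that 1 library lay within the control range, whereas the column that the tables give to the knockdown held 11.3 FPKM and the one that they give to TSA 7.61 FPKM. Markers of the 2-cell embryo (8 genes, such as Zscan4d and Zfp352) summed to 32.5 to 62.4 FPKM in the columns headed TSA, Sirt1 and 4-cell control, and to 341 and 396 FPKM in those headed 4-cell FK866 and 4-cell FK866+NMN, beside 467 FPKM in late 2-cell controls. The 9 oocyte and embryo markers summed to between 40.6 and 1310 FPKM, and the sperm marker Spata19 was at 3.55 FPKM in early 2-cell embryos and at 0 elsewhere. Of 9 cumulus and granulosa markers, 0 to 2 reached 1 FPKM in a column. The 4 blood markers summed to 212 FPKM in the column headed 4-cell FK866, against 1.09 to 27.8 FPKM in the others. Its part in the results below was not tested.

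**Figure D1:**
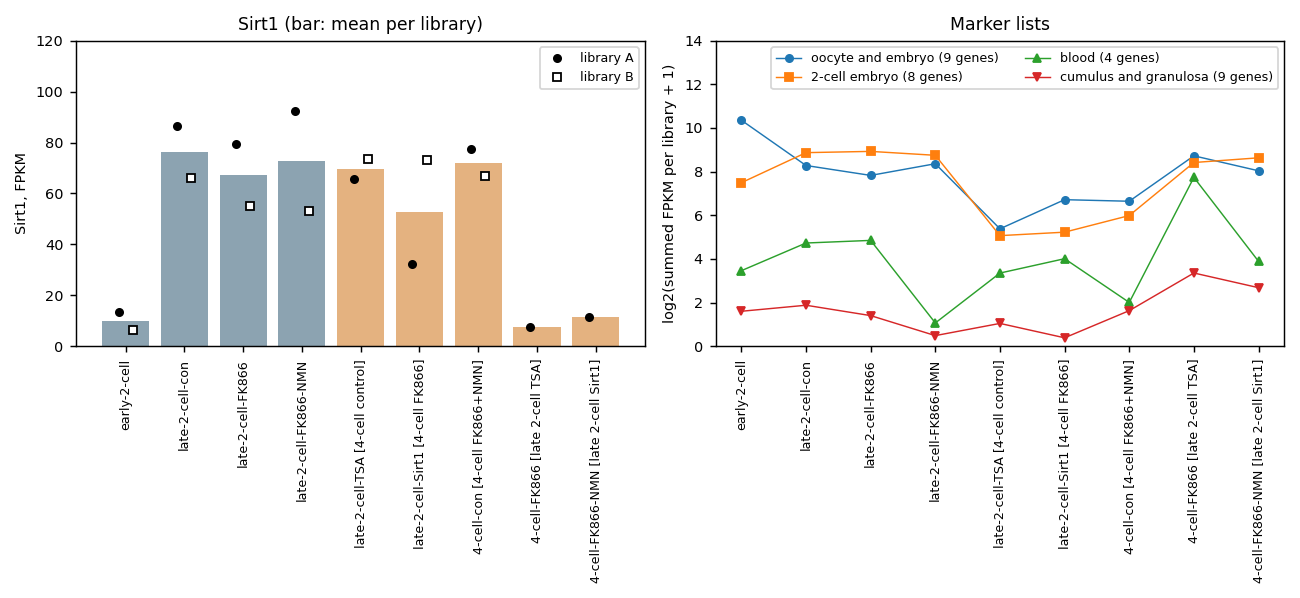
Left, Sirt1 in FPKM for the 9 columns (bar, mean per library; circle, library A; open square, library B). Right, marker lists as log2 of the summed FPKM per library plus 1. Orange bars are the 5 columns that the study's tables name differently, in brackets, and blue bars the other columns. Sirt1 was at most 13.5 FPKM in early 2-cell embryos and under the headers 4-cell FK866 and FK866+NMN, and 2-cell markers were lowest in the columns headed TSA, Sirt1 and 4-cell control.

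Tail length in the oocyte is set in part by words in the 3′ UTR, the cytoplasmic polyadenylation element (CPE) and the poly(A) signal. These windows are shown because the members both act on tails and carry them. In the last 100 bases of the 3′ UTR on the sense strand, a CPE word, TTTTAT or TTTTAAT, stood in 4 of the 8 members that had a curated RefSeq transcript with a 3′ UTR of that length, and in 19.2% of 9321 genes of the rows. AATAAA or ATTAAA stood in the last 40 bases of 8 of 8 members and of 78.5% of genes. Zar1l had no such transcript. The windows below are from GRCm38.p6, 5′ to 3′ on the gene's strand, with the CPE word in capitals and, where it falls inside, the AATAAA nearest the end in capitals too. In Pan3 the CPE word overlaps a further AATAAA, whose last bases are left in lower case.
Btg4 (chr9:51119860-51119889, plus strand, 3′ UTR): tgatatcatctaTTTTATaaaagtggtact
Pan2 (chr10:128321324-128321353, plus strand, 3′ UTR): aAATAAAagtatTTTTATctcattagaaaa
Pan3 (chr5:147548469-147548498, plus strand, 3′ UTR): ttTTTTAATaaagaattgcagaAATAAAct
Ythdf2 (chr4:132184986-132185015, minus strand, 3′ UTR): ctTTTTATtataaaatatatcttcaatatt
The CPE word shown began 53, 23, 31 and 98 bases before the end of the transcript in Btg4, Pan2, Pan3 and Ythdf2. Cnot6l, Cnot7, Pabpn1l and Zar1 held neither word in this window, which says nothing of sites further upstream. A match is a description of the sequence only. The members with the word include Btg4, the highest of the group in early 2-cell embryos, and Pan2, the lowest.

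In early 2-cell embryos Btg4 was far above the other members at 1685 FPKM per library, rank 13 of 15737 genes. Its value there splits into whole reads in 4 ways, which put library A between 1834 and 2397 FPKM and library B between 973 and 1536 FPKM. Next came Zar1 at 110 and 242 FPKM, Zar1l at 108 and 160 FPKM, Cnot6l at 130 FPKM per library, with 2 possible splits (126 and 134, or 79.9 and 180 FPKM), and Cnot7 at 141 and 102 FPKM. The libraries of these 4 genes overlapped, so their order is not resolved. Pabpn1l followed at 89.9 and 71.8 FPKM, below both Cnot7 libraries, with library A, but not B, within the range of Cnot6l under its second split. Pan3 (23.6 and 17.8 FPKM) and Ythdf2 (21.1 and 19.7 FPKM) overlapped, and Pan2 (7.24 and 4.22 FPKM) lay below both.

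**Figure D2:**
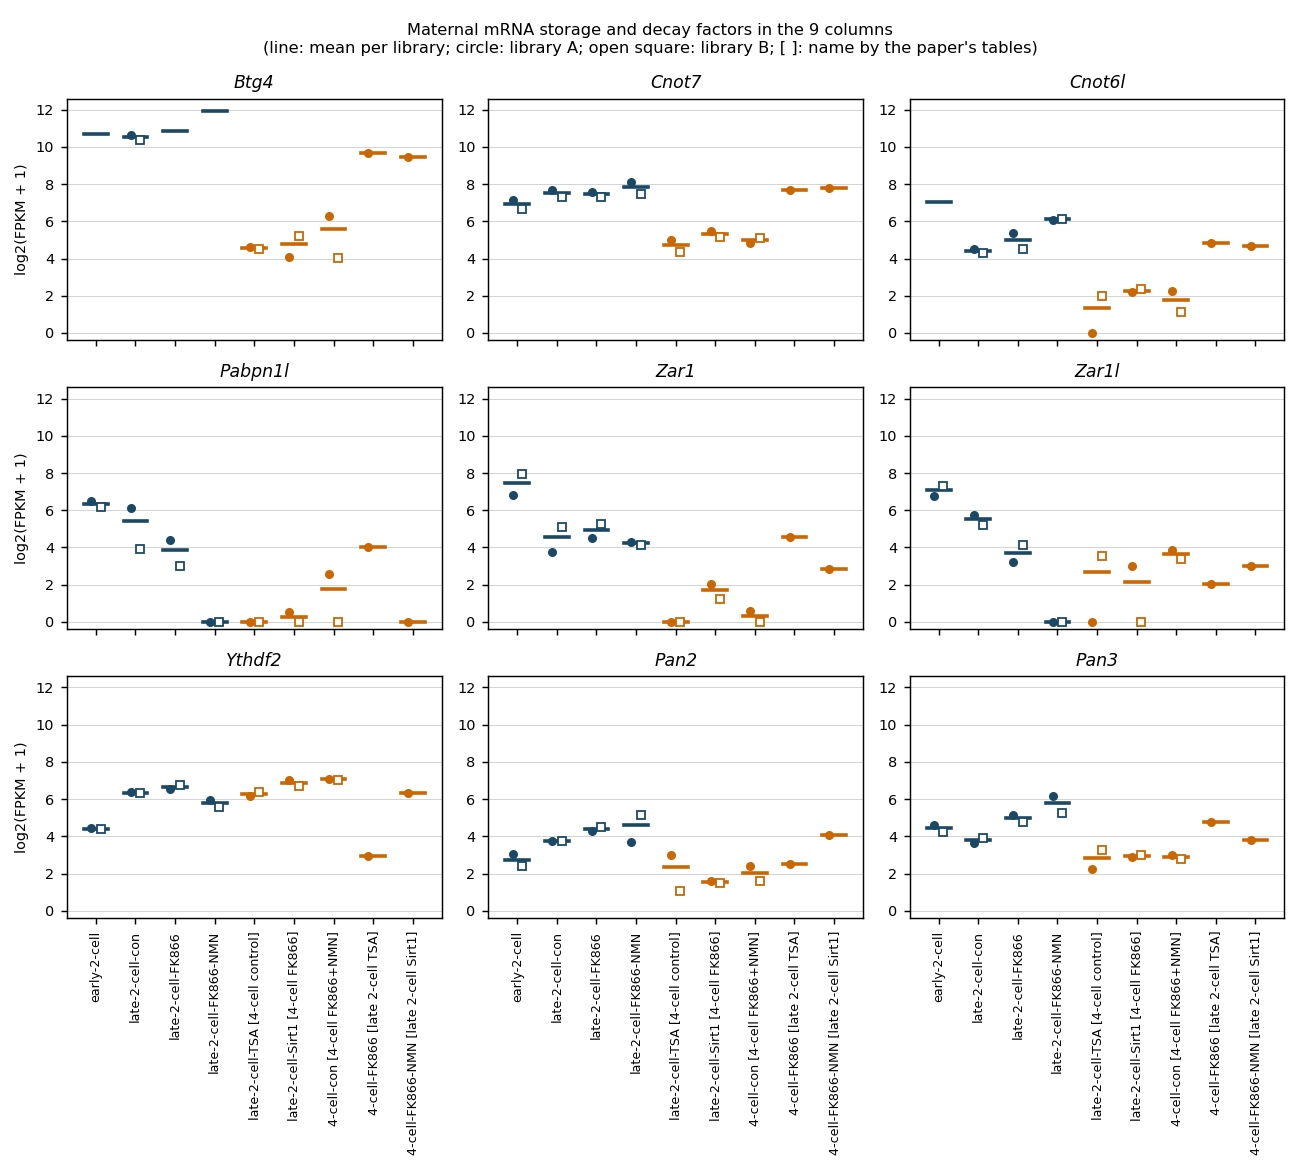
log2(FPKM + 1) of the 9 genes in the 9 columns, named by the header and, in brackets and orange, by the study's tables. Lines are means per library, circles library A and open squares library B, and libraries are left out where a value splits in more than 1 way (Btg4 in 3 columns, Cnot6l in 1). Btg4, Cnot7, Cnot6l and Zar1 were lower in the columns headed TSA, Sirt1 and 4-cell control than in the other columns, and Ythdf2 was lowest in the column headed 4-cell FK866.

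From the early to the late 2-cell stage, the members parted. Zar1 and Cnot6l fell, Ythdf2 rose, and Btg4 and Cnot7 stayed abundant. Zar1 was at 110 and 242 FPKM in early and at 12.5 and 32.8 FPKM in late 2-cell control libraries, without overlap. The log2 fold change in limma, over all 16 libraries and 8043 genes, was -2.95 ± 0.636 (SE, 2 libraries per group, adjusted p = 0.00867). Without early library B the adjusted p was 0.0966, without late control library A 0.0694, and with a pseudocount of 0.1 it was 0.0669. Cnot6l went from 130 FPKM per library to 21.5 and 18.4 FPKM, with a limma log2 fold change of -2.54 to -2.65 and an adjusted p of 0.0186 to 0.0303 over its splits. Ythdf2 went from 21.1 and 19.7 FPKM to 81.3 and 78.0 FPKM, a rise of 1.92 ± 0.33 in log2 (SE, limma adjusted p = 0.00252), and remained called without any single library.

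Zar1l, the paralogue of Zar1, was at 108 and 160 FPKM in early and at 52.8 and 36.5 FPKM in late 2-cell embryos. The groups did not overlap, but the limma adjusted p was 0.365 (0.0353 with only the libraries compared). Pabpn1l was at 89.9 and 71.8 FPKM and then at 69.3 and 14.3 FPKM (adjusted p = 0.36), with late libraries that differed more from each other than late A did from the early ones. Btg4 was at 1618 and 1304 FPKM in late 2-cell controls, still rank 17 of 15737 genes (adjusted p = 0.872 to 0.99 over its splits), and Cnot7 at 205 and 158 FPKM (adjusted p = 0.311). Pan2 was at 7.24 and 4.22 and then at 12.3 and 12.5 FPKM (adjusted p = 0.36), and Pan3 at 23.6 and 17.8 and then at 11.3 and 14.2 FPKM (adjusted p = 0.422). By fold alone, 3 of 9 members were more than 2-fold lower and 1 more than 2-fold higher, against 31.7% and 32.2% of 9514 expressed genes. The lower share is near that of all genes, and the higher share is below it. In limma, 1 of 7 members with a single split was called higher and 1 lower, beside Cnot6l, against 11.3% and 6.81% of genes. The median log2 fold change was -0.657 for the members and -0.00316 for all expressed genes. Each library is 3 pooled embryos, and fewer molecules per embryo cannot be told from a change in the total RNA to which FPKM is relative.

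At the late 2-cell stage, no member passed the test for a difference between FK866 and control. Btg4 was at 1822 FPKM per library with FK866 and 1461 FPKM in controls, and its FK866 value splits into 3267 and 378 or 2396 and 1249 FPKM. Cnot7 was at 192 and 157 FPKM with FK866 and at 205 and 158 FPKM without, with overlapping libraries. The members that differed most were Pan3, Zar1l and Pabpn1l. Pan3, the cofactor that ties PAN2 to the poly(A)-binding protein, was at 34.3 and 26.8 FPKM with FK866 and at 11.3 and 14.2 FPKM without, 2.39-fold higher with no overlap (limma log2 fold change 1.19 ± 0.522, adjusted p = 0.538). Zar1l was at 8.23 and 16.2 FPKM against 52.8 and 36.5 FPKM, 3.65-fold lower with no overlap (adjusted p = 0.674). Pabpn1l was at 20.4 and 6.91 FPKM against 69.3 and 14.3 FPKM, 3.06-fold lower with overlapping libraries (adjusted p = 0.726).

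The other members were within 2-fold of control. Zar1 was at 21.5 and 37.4 FPKM with FK866 and 12.5 and 32.8 FPKM without. Cnot6l was at 40.9 and 21.9 FPKM against 21.5 and 18.4 FPKM, Ythdf2 at 90.8 and 109 FPKM against 81.3 and 78.0 FPKM, and Pan2 at 18.1 and 21.5 FPKM against 12.3 and 12.5 FPKM. By fold, 1 of 9 members was more than 2-fold higher and 2 were lower, against 18.1% and 20.0% of 9022 genes, which is near the background. In limma 0 of 7 members were called, with 1 at an unadjusted p under 0.05. Over all 8043 genes, 0.0497% were called higher and the same share lower. Of the 8 members with a single split here, Pan3 was more than 2-fold higher and Zar1l lower with every library beyond those of the control, against 9.43% and 10.9% of 8640 genes.

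When NMN was added to FK866, Pabpn1l and Zar1l were at 0 reads in both libraries. Pabpn1l had 218 and 67 reads in the FK866 libraries and 539 and 71 in the control libraries. With the limit of 3 reads per library, Pabpn1l was at least 35.6-fold below the mean with FK866 alone and at least 109-fold below the mean of controls. Zar1l had 66 and 118 reads with FK866 and 308 and 136 in controls. With FK866+NMN it was at least 23.9-fold and at least 87.3-fold below the means of those groups. Against FK866 alone, the limma adjusted p was 0.0619 for Pabpn1l (0.0463 with a pseudocount of 0.1) and 0.111 for Zar1l. Against controls, a comparison added after seeing the data, both fell, with limma adjusted p-values of 0.0125 and 0.0173. Limma called 5.36% of genes lower and 1.04% higher there, and 36.2% and 21.0% were past 2-fold. The call of Pabpn1l was lost without control library A (adjusted p = 0.0749), and that of Zar1l without control library A or B (adjusted p = 0.0951 and 0.0677), and both were lost with only the libraries compared (adjusted p = 0.476 for each). The FK866+NMN column held values above 0 for 7945 genes and the FK866 column for 10160, and 33.3% of 8605 genes were more than 2-fold lower with NMN, against 18.9% higher. Whether this wider loss of low values has a part in the zeros of Pabpn1l and Zar1l was not tested.

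Btg4 and Cnot6l were more than 2-fold higher with FK866+NMN than with FK866 alone, but neither was called. Btg4 reached 3872 FPKM per library, rank 6 of 15737 genes, against 1822 FPKM with FK866, and its splits put library A at 5326 or 5558 and library B at 2417 or 2185 FPKM. The limma adjusted p against FK866 was 0.359 to 0.498 over its splits. Cnot6l was at 66.6 and 68.6 FPKM, above both FK866 libraries at 40.9 and 21.9 FPKM (adjusted p = 0.4 to 0.432). Pan3 was at 70.1 and 37.7 FPKM, above both FK866 libraries and both control libraries, with an adjusted p of 0.492 against FK866 and 0.051 against controls (0.0289 with a pseudocount of 5). Ythdf2 was at 61.6 and 47.3 FPKM, below both FK866 libraries (adjusted p = 0.198). Cnot7 was at 278 and 176, Zar1 at 18.4 and 16.7 and Pan2 at 11.9 and 35.0 FPKM. In all, 2 members were more than 2-fold higher and 2 lower than with FK866, none of 7 was called by limma and 3 had an unadjusted p under 0.05. Of all genes, limma called 0.361% higher and 2.35% lower. With every library beyond those of FK866, 1 member was more than 2-fold higher and 2 were lower, against 5.66% and 20.6% of 8214 genes.

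**Figure D3:**
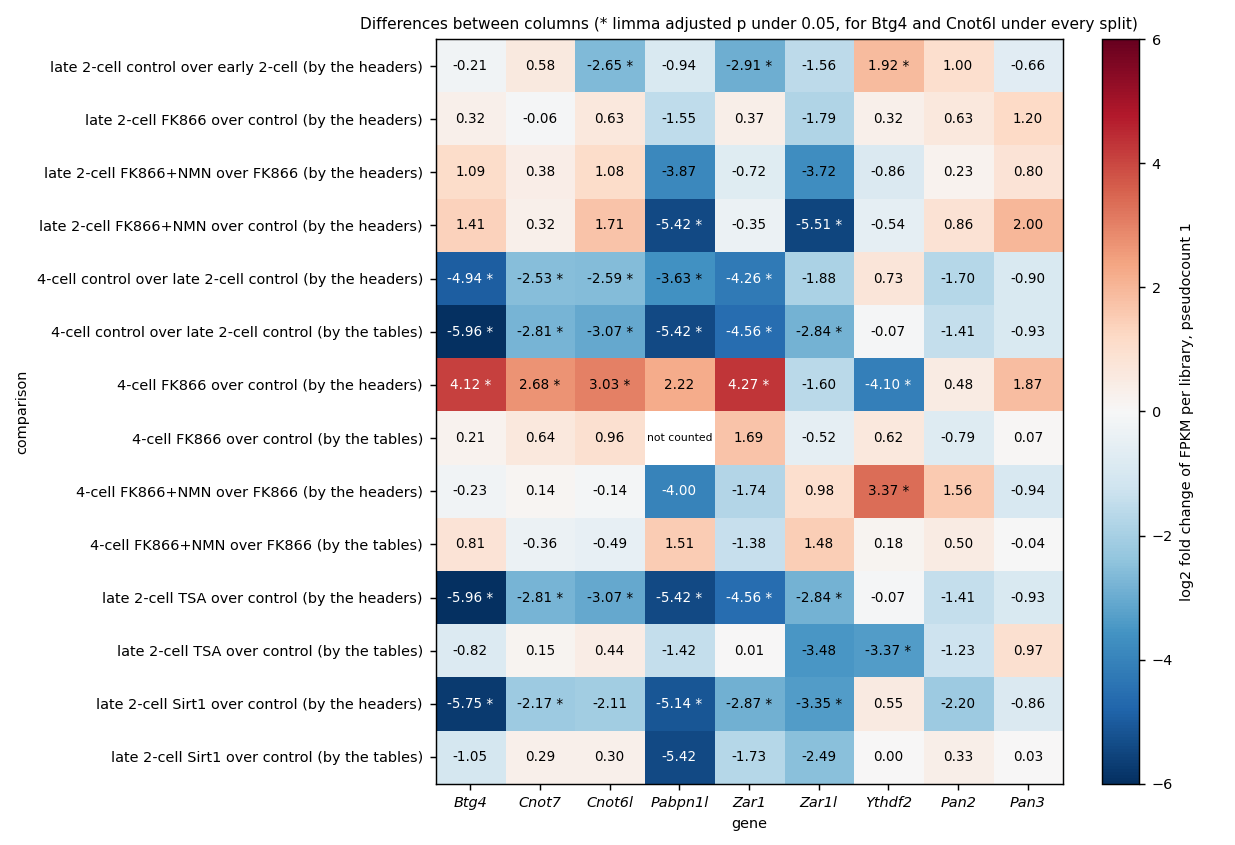
log2 fold changes of FPKM per library (pseudocount 1) of the 9 genes in each comparison, first with the headers' and then with the tables' names. Asterisks mark a limma adjusted p under 0.05, which Btg4 and Cnot6l had to reach under every split, and Pabpn1l was not counted where it was below 1 FPKM in both columns. Where a column is 1 library, the asterisk rests on the spread of the other groups. The asterisk of Ythdf2 in 4-cell FK866+NMN over FK866 by the headers sets 1 library against 1. It has no replicate check and is not read as a call. Late 2-cell FK866 over control has no asterisk. In 4-cell over late 2-cell controls, Btg4 was at -4.94 under the headers' and -5.96 under the tables' names. 4-cell FK866 over control has asterisks under the headers only.

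Between the late 2-cell and the 4-cell control, Btg4, Cnot7, Cnot6l, Pabpn1l and Zar1 fell, whichever column is taken as the 4-cell control. Btg4 fell from 1618 and 1304 FPKM to 77.4 and 15.6 FPKM by the headers (limma log2 fold change -5.33, adjusted p = 0.00193 to 0.00733 over the splits of its other columns) or to 23.2 and 21.8 FPKM by the tables (-5.95, adjusted p = 0.000321 to 0.00207). Its rank went from 17 to 957 or 1637 of 15737 genes. Cnot7 fell from 205 and 158 FPKM to 27.6 and 33.6 FPKM by the headers (-2.53 ± 0.375, adjusted p = 0.0038) or to 30.4 and 19.8 FPKM by the tables (-2.83 ± 0.375, adjusted p = 0.000767). Cnot6l fell from 21.5 and 18.4 FPKM to 3.79 and 1.15 FPKM by the headers (adjusted p = 0.027 to 0.0353), or to 0 and 3.0 FPKM by the tables (adjusted p = 0.00575 to 0.00784).

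Zar1 had 282 and 473 reads in late 2-cell controls and 9 and 0 reads by the headers, where it fell by 4.14 ± 0.636 in log2 (limma adjusted p = 0.00416). By the tables both libraries had 0 reads, at least 175-fold below the mean of late 2-cell controls (adjusted p = 0.00123). Pabpn1l had 539 and 71 reads and then 32 and 0 by the headers (-3.75 ± 0.928, adjusted p = 0.0274). By the tables it had 0 and 0 reads, at least 111-fold below the late 2-cell control mean (adjusted p = 0.00432). By the headers the call of Zar1 was lost without 4-cell library B (adjusted p = 0.0572), and that of Pabpn1l without that library or late control library A (adjusted p = 0.251 and 0.173), with a pseudocount of 0.1 (0.0858), with no filter (0.0582) and with only the libraries compared (0.0751). Zar1l was at 13.5 and 9.39 FPKM by the headers (adjusted p = 0.332) and at 0 and 10.8 FPKM by the tables (adjusted p = 0.0416). That last call was lost without either late control library (adjusted p = 0.169 without A and 0.122 without B) and without the library at 0 (adjusted p = 0.325), and also with a pseudocount of 0.1 (0.121), with no filter (0.104) and with only the libraries compared (0.11). By the headers, Zar1l was called with only the libraries compared (0.0414).

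Ythdf2 did not follow the other members. It was at 135 and 132 FPKM in the 4-cell control by the headers (adjusted p = 0.193) and at 70.6 and 81.0 FPKM by the tables (adjusted p = 0.951), beside 81.3 and 78.0 FPKM in late 2-cell controls. Pan2 was at 4.27 and 1.98 FPKM by the headers and 7.01 and 1.08 FPKM by the tables, below both late 2-cell libraries at 12.3 and 12.5 FPKM, but was not called (adjusted p = 0.16 and 0.138). Pan3 was at 6.89 and 5.88 or 3.71 and 8.74 FPKM, also below 11.3 and 14.2 FPKM and not called (adjusted p = 0.322 and 0.222). By fold, 7 of 9 members were more than 2-fold lower and 0 higher by either naming, against 33.8% lower and 24.2% higher of 8868 genes by the headers and 41.3% and 23.2% of 8648 genes by the tables. In limma 3 of 7 members were lower by the headers and 4 of 7 by the tables, and Btg4 and Cnot6l by both, against 6.54% and 11.6% of genes, and none was higher, against 3.42% and 6.07%. The median log2 fold change of the members was -2.53 with the headers' and -2.84 with the tables' names, beside -0.208 and -0.442 for all expressed genes.

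At the 4-cell stage the comparison of FK866 with control turns on the naming. By the headers, the FK866 column is 1 library in which Btg4 was at 827, Cnot7 at 202, Cnot6l at 27.4 and Zar1 at 22.9 FPKM, all above both control libraries. The spread of this group itself is unknown, and the p-values below take it from the other groups. Btg4 was 17.8-fold higher (limma adjusted p = 0.00331 to 0.0191), Cnot7 6.61-fold (adjusted p = 0.00281), Cnot6l 11.1-fold (adjusted p = 0.0191 to 0.025) and Zar1 96.4-fold (adjusted p = 0.00375), the last over 9 and 0 control reads. Ythdf2 was 19.5-fold lower, at 6.82 against 135 and 132 FPKM (adjusted p = 0.000228). Pabpn1l was at 15.0 FPKM, Zar1l at 3.10, Pan2 at 4.74 and Pan3 at 26.0 FPKM, and none of these was called with the main settings. For Pan3 and Pabpn1l this depended on the settings and on the libraries left out. By fold, 6 of 9 members were more than 2-fold higher and 2 lower, against 41.8% and 32.9% of 9368 genes. Limma called 2 of 7 higher and 1 lower, against 12.5% and 10.4% of genes. With only the libraries compared, Cnot7 and Zar1 were no longer called (adjusted p = 0.05 and 0.0569). A lone library is assumed here to vary like the others, this one has the high blood markers, and the treatment cannot be told apart from the library.

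By the tables, the 4-cell FK866 and control columns hold 2 libraries each, and no member was called. Btg4 was at 16.3 and 36.0 FPKM with FK866 and at 23.2 and 21.8 FPKM without. Cnot7 was at 43.8 and 35.3 against 30.4 and 19.8 FPKM, without overlap (limma adjusted p = 0.9), and Ythdf2 at 130 and 105 against 70.6 and 81.0 FPKM, without overlap (adjusted p = 0.879). Zar1, with 107 and 15 reads with FK866 and 0 in both control libraries, was the 1 member more than 2-fold higher, and none of 8 expressed members was lower, against 21.2% and 13.4% of 7420 genes. None of 7 members was called, 1 had an unadjusted p under 0.05, and limma called 0.0995% of genes higher and 0.0124% lower. By the tables' names, then, limma called no member between FK866 and control at either stage, which does not show that the levels were equal.

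For FK866+NMN over FK866 at the 4-cell stage by the headers, both columns are single libraries, so the differences have no replicate check and are given with no p. Ythdf2 was 11.7-fold higher, at 79.9 against 6.82 FPKM, while Btg4 was at 706 against 827 FPKM and Cnot7 at 222 against 202 FPKM. Pabpn1l had 0 reads against 84, and Zar1 was at 6.14 against 22.9 FPKM. Of 9 members, 2 were more than 2-fold higher and 2 lower, against 25.0% and 34.7% of 8929 genes, and limma, on the spread of the other groups, marked 1.12% of genes higher and 1.22% lower. By the tables, Btg4 was at 77.4 and 15.6 FPKM with NMN against 16.3 and 36.0 FPKM, and Zar1l at 13.5 and 9.39 against 6.92 and 0 FPKM. Pabpn1l had 32 and 0 reads with NMN against 5 and 0 reads, so its libraries overlapped near the floor. By that naming Pabpn1l and Zar1l, 2 of 9 members, were more than 2-fold higher and Zar1 was lower, against 14.8% and 11.5% of 7754 genes, and none of 7 was called or had an unadjusted p under 0.05. Of all genes, 0.0249% were called higher and 0.0% lower.

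TSA and the Sirt1 knockdown at the late 2-cell stage also depend on the naming. By the headers, the TSA column is the one that the tables call 4-cell control, so its values are those given above: Btg4, Cnot7, Cnot6l, Pabpn1l, Zar1 and Zar1l were lower in limma and Ythdf2, Pan2 and Pan3 were not called. The shares of genes past 2-fold (23.2% higher and 41.3% lower) and called by limma (6.07% and 11.6%) are the same too. By the tables, TSA is the single library of the column headed 4-cell FK866. Btg4 was then at 827 against 1618 and 1304 FPKM, 1.77-fold lower (adjusted p = 0.642 to 0.781), and Cnot7 at 202 FPKM lay between the control libraries. Ythdf2 was 11.7-fold lower, at 6.82 against 81.3 and 78.0 FPKM (-3.37 ± 0.405, limma adjusted p = 0.00176). That p takes the spread of TSA from the other groups, and TSA cannot be told apart from this library, which has the high blood markers. Zar1l, at 3.10 FPKM, was 14.4-fold lower and not called (adjusted p = 0.191). By fold 4 of 9 members were lower and 0 higher, against 29.7% and 30.1% of 9420 genes. Limma called 2.52% of genes higher and 3.0% lower.

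In the column headed late 2-cell Sirt1, Btg4 was at 16.3 and 36.0 FPKM, 55.8-fold below the control (limma adjusted p = 0.000634 to 0.00354). Cnot7 was at 43.8 and 35.3 FPKM (adjusted p = 0.00467), Pabpn1l had 5 and 0 reads (adjusted p = 0.00763), Zar1 107 and 15 reads (adjusted p = 0.0164) and Zar1l 62 and 0 reads (adjusted p = 0.0367), all lower than in controls. Cnot7 alone of these 4 was called whichever library was left out. Pabpn1l was lost without control library A or the library of that column at 0 (adjusted p = 0.0629 and 0.0538), Zar1 without control library B or the smaller Sirt1 library (0.0994 and 0.102), and Zar1l without either control library or the smaller Sirt1 library (adjusted p = 0.16, 0.115 and 0.257). With a pseudocount of 0.1 and with only the libraries compared, Zar1 (0.0602 and 0.0596) and Zar1l (0.119 and 0.0594) were lost, and Zar1l also with no filter (adjusted p = 0.0923). Cnot6l, at 3.65 and 4.07 FPKM, was not called (adjusted p = 0.0603 to 0.0757). Pan2, at 2.01 and 1.82 FPKM, was 6.49-fold lower and not called (limma adjusted p = 0.0708, but 0.0496 with a mean of at least 5 FPKM). Ythdf2, at 130 and 105 FPKM, lay above both control libraries (adjusted p = 0.321). By fold 7 of 9 members were lower and 0 higher, against 36.6% and 24.3% of 8779 genes, and limma called 8.64% of genes lower and 4.69% higher.

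By the tables, the knockdown is the single library of the column headed 4-cell FK866+NMN. Ythdf2 was there at 79.9 FPKM, between the control libraries, and Pan3 at 13.1 FPKM likewise. Btg4, at 706 FPKM, was 2.07-fold lower, and Pabpn1l had 0 reads, at least 115-fold below the control mean. Neither was called by limma. Zar1 was at 6.14 and Zar1l at 7.12 FPKM, both below the control libraries and not called (adjusted p = 0.681 and 0.771). By fold 4 of 9 members were lower and 0 higher, against 28.2% and 16.4% of 8622 genes. Limma called 0.0% of genes in either direction, with 1 of 7 members and 654 of 8043 genes at an unadjusted p under 0.05.

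Other genes that store, tail or degrade mRNA were taken from 6 lists of 108 names, of which 66 were among the rows. The rows hold genes of chromosomes 1 to 11 only, so a name that is missing need not be a gene without expression. From early to late 2-cell controls, limma called 8 of 58 lower and 2 higher, against 6.81% and 11.3% of all genes. From late 2-cell to 4-cell controls it called 7 of 58 lower and 2 higher by the headers (6.54% and 3.42% of all genes), and 12 lower and 3 higher by the tables (11.6% and 6.07%). With FK866 at the late 2-cell stage it called none of 58, and 7 of 61 expressed genes were more than 2-fold higher and 6 lower, against 18.1% and 20.0%. The median log2 fold change of the 61 expressed genes from late 2-cell to 4-cell controls was -0.185 by the headers and -0.686 by the tables, closer to that of all genes than the median of the members. No test was made between the lists and the members.

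Among subunits of CCR4-NOT and its BTG/TOB adaptors, 11 of which were among the rows, none of 9 was called in either stage comparison by the headers. By the tables the subunit gene Cnot3 was lower in 4-cell controls, at 0.401 against 5.48 FPKM (limma adjusted p = 0.0374). Btg1 and Btg2, antiproliferative relatives of Btg4, went opposite ways without passing the test. Btg1 was at 2.21, 12.2 and 43.1 FPKM per library in the early, late and 4-cell control columns by the headers, and Btg2 at 14, 7.93 and 1.69 FPKM. The subunit genes Cnot4 and Cnot11 were at 38.4 and 68.8 FPKM in early and 5.37 and 11.7 FPKM in late 2-cell embryos (limma adjusted p = 0.0913 and 0.14). Of the other tail enzymes, 3 of 6 were lower in 4-cell controls by either naming. Tent5b and Tent5c, members of the TENT5 family of poly(A) polymerases, went from 151 and 24.3 to 7.79 and 1.67 FPKM by the headers (adjusted p = 0.00736 and 0.00653), and Angel2, a relative of the CCR4-type deadenylases, from 259 to 24.9 FPKM (adjusted p = 0.0134).

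Pabpc1l, the poly(A)-binding protein of oocytes, fell earlier, from 105 FPKM in early to 4.84 FPKM in late 2-cell embryos (limma log2 fold change -4.21 ± 0.559, adjusted p = 0.000457), whereas Pabpc4 was at 165 and 128 FPKM (adjusted p = 0.465). Among m6A writers, readers and erasers, none of 8 was called in the stage comparisons by the headers, and Igf2bp3 alone, which binds and stabilises m6A-marked mRNA, was lower in the 4-cell control by the tables (19.7 to 3.58 FPKM, adjusted p = 0.0332). Ythdf1 and Ythdf3, the paralogues of Ythdf2, were at 6.14 and 39.6 FPKM in early and 24.0 and 17.5 FPKM in late 2-cell embryos, and neither was called. Of the decapping and P-body list, Lsm14a, a P-body scaffold protein, fell from 152 to 25.5 FPKM by the headers (adjusted p = 0.00653) or 14.5 FPKM by the tables (adjusted p = 0.000831). Lsm5, of the LSM ring that binds deadenylated ends, rose from 3.73 to 51.4 or 109 FPKM (adjusted p = 0.0486 and 0.0126). Lsm3 and Lsm6 of the same ring had fallen from early to late 2-cell embryos, from 30.8 to 1.34 and from 14.4 to 0.809 FPKM (adjusted p = 0.00882 and 0.00647).

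The list of oocyte storage and 3′ UTR binding proteins also held Kpna7, an importin made by oocytes and not itself such a protein. Kpna7 fell at both steps, from 224 to 42.7 FPKM (limma adjusted p = 0.00435) and then to 0.291 FPKM by the headers (adjusted p = 0.000776) or to 0 by the tables (adjusted p = 9.55e-05). Elavl2 and Nanos2, which bind 3′ UTRs in germ cells, fell from 67.4 to 10.7 and from 50.6 to 5.18 FPKM between the early and late 2-cell stages (adjusted p = 0.0294 and 0.00866). Nanos3 was at 0 FPKM in early and 14.4 FPKM in late 2-cell embryos and was not called (adjusted p = 0.335). With NMN added to FK866, Nanos2 was the 1 gene of 58 called, at 0.0598 against 24.4 FPKM (adjusted p = 0.00862).

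**Figure D4:**
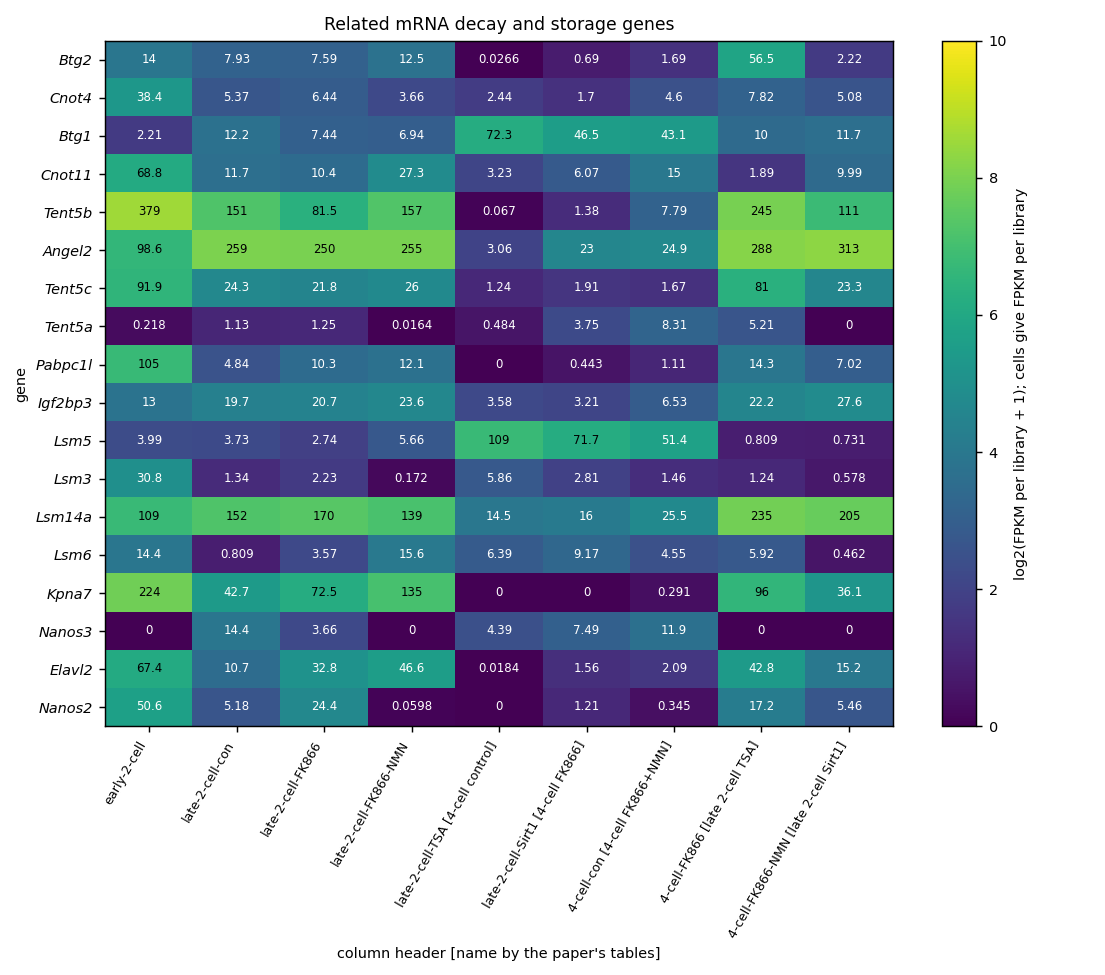
FPKM per library of the 18 related genes that differed more than 4-fold between control stages under either naming (at most 4 per list, in list order), in the 9 columns. Colour is log2(FPKM per library + 1) and the numbers are FPKM. Angel2 was between 3.06 and 24.9 FPKM in the columns headed TSA, Sirt1 and 4-cell control and between 98.6 and 313 FPKM in the other 6.

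Over the 9 columns, the members formed no single pattern. Pearson's r of log2(FPKM per library + 1) was 0.936 between Btg4 and Cnot7, 0.929 between Btg4 and Cnot6l and 0.938 between Cnot6l and Zar1. Pabpn1l and Zar1l, which were at 0 together with FK866+NMN, had an r of 0.779. Zar1l had an r of 0.137 with Btg4 and 0.444 with Zar1, and Ythdf2 had an r between -0.571 and 0.058 with the other members. These values rest on 9 columns that share stage and library makeup and carry no test. Among the genes most like Btg4 were Golph3l (r = 0.992) and Itga9 (0.987), and those most like Cnot7 were Gm10857 (0.994), Prmt2 (0.992) and Angptl2 (0.99). Cnot6l was most like Dclk2 (0.997), Itpr2 (0.989) and Tacc2 (0.987), and Zar1 most like Plat (0.983), Mdh1 (0.979) and Gm38056 (0.974). Such patterns were common: 568 genes had an r over 0.9 with Btg4, 487 with Cnot7, 503 with Cnot6l and 278 with Zar1, but 96 with Ythdf2, 113 with Pan3, 24 with Pan2, 23 with Pabpn1l and 6 with Zar1l. The nearest genes were Ptpn9 (0.982), Tpr (0.976) and 2410004B18Rik (0.972) for Ythdf2, Zbtb46 (0.972), Dnmt3l (0.965) and Rimklb (0.963) for Pan3, Resf1 (0.959), Gm16478 (0.949) and Usp47 (0.945) for Pan2, Slc26a6 (0.97), Alms1-ps2 (0.962) and Map11 (0.961) for Pabpn1l, and Gm12397 (0.933), Poc1a (0.93) and Hsd17b7 (0.929) for Zar1l.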

How the data were processed

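RNA was sequenced from 18 samples in 9 groups. The 24 H3K27ac samples were not analysed here. According to the labels and the study's methods, the authors used Trim Galore for trimming, HISAT2 for alignment to mm10 and featureCounts for counting, and deposited FPKM values, 1 column per group. The submitters' processing notes name CASAVA 1.4 and HISAT2. The labels give 2 samples per group and do not say whether these are separate embryo pools. The study's methods give 3 embryos per reaction and 2 replicates per group, and its figure legends call the replicates biological. The p-values measure the spread between libraries.

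Of 15748 rows, 15747 were complete and 15737 had a symbol listed once, on chromosomes 1 to 11. FPKM times the exon length of GENCODE M21 (15360 genes) gave the read steps of each library, and 97.0% to 97.8% of values above 0 split in 1 way into whole reads. Of the 81 values of the members, 77 did. In each column, 2.17% to 2.37% of values above 0 did not fall on whole reads. On data simulated with the same exon lengths and library totals, at least 99.78% split in 1 way, all of them rightly. That simulation could not test whether these exon lengths are the ones behind the deposited FPKM. FPKM per library is the column over its number of libraries. Calls between columns are log2 fold changes with a pseudocount of 1 beyond 1, over genes at 1 FPKM or more in either column, and carry no p. The fold change understates the change of low genes. The second measure was limma 3.58.1 (R 4.3.3, trend) on log2(FPKM + 1) of the 16 libraries in 1 fit, over 8043 genes at a mean of 1 FPKM or more that split in 1 way in every column, with Benjamini-Hochberg adjustment and a threshold of 0.05. Data were also simulated for late 2-cell FK866 over control. There, limma called 68 of 100 genes raised 4-fold, 62 of 100 lowered 4-fold and 7 of 7843 unchanged genes. In the embryo libraries, the limma SE of members in this comparison ran from 0.33 for Ythdf2 to 0.928 for Pabpn1l and 1.12 for Zar1l. How often a 4-fold change would be called at the SE of Pabpn1l or Zar1l was not tested. Btg4 and Cnot6l were entered under each combination of their possible splits, a choice made after seeing the data, as were limma by the tables' names and FK866+NMN over control. A group of 1 library was assumed to vary like the others. The interaction of treatment and stage was tested in the same fit.

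The members, the related lists and the markers were chosen with earlier results of these data known. Named genes are the 9 members, of each related list the genes past 4-fold between control stages (at most the 4 largest), and for each member the 3 genes with the highest r among those at 5 FPKM or more in a column; Cnot3, Pabpc4, Ythdf1, Ythdf3 and Nanos2 with NMN were named beyond that rule, after their values were seen. For Btg4, 1 of these 3 genes is not reported here. Genes at 0 were given a limit of 3 reads per library, which covers counting error only. The folds given with it are against the mean of the other group, and are smaller against its lower library. Sequences are from RefSeq on GRCm38.p6. The comparison columns of the study's tables served only to name the columns. Python 3.11.15 was used for the rest.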

Additional observations from a re-analysis of the deposited data

Results flagged for a closer look

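With the columns named by their headers, the FK866 effect at the 4-cell stage minus that at the late 2-cell stage passed the limma test of the interaction, adjusted over 8043 genes, for 3 members. The log2 difference was 2.75 for Cnot7 (adjusted p = 0.0199), 3.83 for Zar1 (adjusted p = 0.04) and -4.42 for Ythdf2 (adjusted p = 0.00181). For Btg4 it was 4.27 to 4.91 over its splits (adjusted p = 0.0299 to 0.0719), past the threshold under some splits and not under others. The 4-cell FK866 arm is 1 library, with Sirt1 at 7.61 FPKM and blood markers at 212 FPKM. Its spread was taken from the other groups, so these values cannot be told apart from a difference of that library. For Ythdf2 the effect of NMN beside FK866 differed by 4.24, but both 4-cell arms are 1 library each and no p is given. Over all genes, 379 and 293 passed the FK866 test upwards and downwards.

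With the columns named by the study's tables, where each 4-cell arm has 2 libraries, none of these was past the threshold. The FK866 differences were 0.714 for Cnot7 (adjusted p = 0.81), 1.17 for Zar1 (adjusted p = 0.814), 0.305 for Ythdf2 (adjusted p = 0.93) and -0.145 to 0.492 for Btg4 (adjusted p = 0.964 to 1.0), and the NMN difference of Ythdf2 was 1.06 (adjusted p = 0.429).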

How the results depend on the processing

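No paired analysis was possible because the table gives 1 column per group and the separated libraries carry no replicate number. Of the values of single members under the alternatives, 942 counted as the same, 13 became called, 43 lost their call, 119 moved and 28 reversed. A limma value counted as the same where it kept direction and side of the threshold. A fold change between columns did so where it stayed within the larger SD of the libraries of either column. It counted as reversed only where the main value was more than 2-fold and the sign changed. Of the counts of members, 293 stayed within 1.5 times and 37 did not. The cause was not tested, except that fewer samples enter where libraries are left out. Depth limits values of a few reads, such as Zar1 and Pabpn1l in 4-cell embryos.

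Naming the columns by the tables changed these counts. For 4-cell FK866 over control, the members more than 2-fold higher became 1 and those lower 0, and limma called 0 higher and 0 lower. For 4-cell FK866+NMN over FK866, 1 was more than 2-fold lower and limma marked 0 higher. For TSA, 4 were more than 2-fold lower and limma called 1 lower. For Sirt1, 4 were more than 2-fold lower and limma called 0. The following log2 fold changes reversed under the tables' names. For 4-cell over late 2-cell control it was Ythdf2 (limma -0.074). For 4-cell FK866 over control they were Ythdf2 (columns 0.62, limma 0.62) and Pan2 (limma -0.49). For 4-cell FK866+NMN over FK866 they were Pabpn1l (columns 1.51, limma 1.03) and Cnot7 (limma -0.36). Btg4 changed sign there too, from -0.23 by the headers to 0.81 by the tables (limma 0.51 under each split), within 2-fold by either naming. For TSA they were Cnot7 (0.15, limma 0.17), Cnot6l (0.44), Zar1 (0.015, limma 0.16) and Pan3 (limma 0.98). For Sirt1 they were Cnot7 (0.29, limma 0.30), Cnot6l (0.30), Pan2 (0.33, limma 0.33) and Pan3 (limma 0.039).

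Other settings changed these counts. For late control over early 2-cell, 2 members were more than 2-fold higher with a pseudocount of 0.1 or with columns not divided by their libraries, and limma called 0 lower with a pseudocount of 0.1 and 2 with only the libraries compared or with Btg4 and Cnot6l added. Adding Btg4 and Cnot6l gave 5 lower for 4-cell over late 2-cell control and 4 higher for 4-cell FK866 over control, where only the libraries compared gave 0 higher. Requiring every library of a column to lie beyond those of the other left 1 lower for late FK866 over control and 1 higher for FK866+NMN over FK866, as did a pseudocount of 5 for the latter, and a pseudocount of 0.1 gave 1 lower by limma. For Sirt1, limma called 2 lower with a pseudocount of 0.1 or only the libraries compared. For FK866+NMN over control, limma called 1 higher with a pseudocount of 5 or a mean of at least 5 FPKM, and lower 1 without a filter and 0 with only the libraries compared.

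Leaving out 1 library at a time gave these ranges of members called by limma: 0 to 1 lower for late control over early, 1 to 3 lower for 4-cell over late control, 2 to 3 higher for 4-cell FK866 over control, 3 to 4 lower for TSA, 1 to 4 lower for Sirt1, and 0 to 1 higher and 0 to 2 lower for FK866+NMN over control. It reversed these limma log2 fold changes, none of them called, given as ranges. For late FK866 over control they were Cnot7 (-0.24 to 0.13, above 0 without control A or FK866 B, the latter 0.093) and Zar1 (-0.20 without control A, to 1.13). For FK866+NMN over FK866 it was Pan2 (-0.69 without FK866+NMN B, -0.064 without FK866 A, to 0.79). For TSA it was Ythdf2 (-0.17 to 0.024, the latter without TSA A). For FK866+NMN over control they were Zar1 (-0.87 to 0.46, the latter without control B), Cnot7 (-0.032 without FK866+NMN A, to 0.62) and Pan2 (-0.057 without FK866+NMN B, to 1.42).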
